A study of Mus musculus with 8 samples.

Results

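Livers of 24 h fasted mice with and without hepatic pyruvate carboxylase (Pcx) were compared for 10 genes that carry the glutathione, thioredoxin and NADPH arms of antioxidant defense. The genes were taken by symbol (Nfe2l2, Nqo1, Gclc, Gclm, Gsr, Txnrd1, Srxn1, Gpx1, G6pdx and Pgd), and all 10 were found among the 35275 genes of the deposited table. The RNA came from 4 Pcx L-/- mice, in which a floxed Pcx exon was removed in hepatocytes by Cre under the albumin promoter, and from 4 Pcx f/f littermates, which the sample labels call WT and which are called controls here. All 8 were males labelled C57BL/6, 9 weeks old and deprived of food for 24 h, and each liver gave 1 library. The floxed allele came from C57BL/6NTac stock and was crossed to Flpe and albumin-Cre mice, so the substrain of each mouse is not known. The sources used here do not say whether the controls carried the Cre transgene. The paper calls the deletion specific to hepatocytes, so other cells of the liver would keep the floxed gene. Recombination by cell type was not measured here.

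Liver cells clear peroxides through a glutathione arm and a thioredoxin arm, and both draw their electrons from NADPH. Glutamate-cysteine ligase makes the precursor of glutathione, glutathione peroxidases spend glutathione on peroxides, and glutathione reductase restores it. Thioredoxin reductase does the same for thioredoxin, which serves the peroxiredoxins, and sulfiredoxin rescues peroxiredoxins that have been overoxidized. Many of these genes are known targets of Nrf2, the product of Nfe2l2, which Keap1 marks for degradation until electrophiles or oxidants modify Keap1.

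Depth ranged from 12016242 to 20023108 reads on genes per library. Pcx, the deleted gene (ENSMUSG00000024892), had normalized counts of 14371 to 22059 in controls and 556 to 758 in Pcx L-/- liver, so each of the 8 libraries matched its label. Normalized counts are reads divided by an effective library size (TMM factor times total reads) and brought to a common scale. The hepatocyte markers Alb, Apoa1, Ttr, Cps1, Tat and Hnf4a were present in every library. Their summed normalized count was 1592854 to 1973902 in controls and 915836 to 1392105 in Pcx L-/- liver, and 1 of 6 was lower (Apoa1), beside 13.5% of all genes. Alb made up most of this sum, with 1147426 to 1419706.5 in controls and 690172 to 1019219 in Pcx L-/- liver. It narrowly missed the call (adjusted p = 0.0532 by edgeR). Scaled by total reads alone, 2 of 6 were lower (Apoa1 and Alb), beside 6.61% of all genes. The part of these hepatocyte marker differences in the results that follow was not tested. Marker lists of macrophages, endothelial cells and stellate cells had 0 of 6 genes called each at an adjusted p of 0.05, beside 27.6% of all genes. Their summed ranges overlapped between genotypes. In a whole tissue, fewer cells of a type and less RNA per cell cannot be told apart. Pcx L-/- replicate 1 stood apart from its group. Its TMM factor was 0.97, against 1.14 to 1.16 in the other Pcx L-/- libraries and 0.83 to 0.94 in controls, and its summed count of red blood cell genes was 69307, against 4747 to 16715 elsewhere. It was also the only Pcx L-/- mouse with a number in the 500s, a series it shared with control replicates 1 and 2. Results are therefore given with and without Pcx L-/- replicate 1 where they rest on it. Control replicate 4 stood apart as well, with the fewest reads and a TMM factor of 0.83, against 0.92 to 0.94 in the other controls. Its mean rank correlation (Spearman) with its own group was 0.9799. That of Pcx L-/- replicate 1 was 0.9795, and the other libraries had 0.984 to 0.9883.

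The promoter letters that Nrf2 is known to bind are shown first, since they are what the members of this pathway are often said to share. The antioxidant response element was searched as TGACNNNGC on both strands in RefSeq windows of 300 bases (GRCm38.p6, 250 bases before to 50 after a start site). Windows were held for 8 of the 10 genes (11 windows in all), and 6 windows of 6 genes contained the letters, against 12.4% of 32851 windows of all genes. GC content was 47.0% to 79.7% in the 11 windows, and the median over all windows was 52.7%. The letters can overlap the TGANTCA element of AP-1 factors, and a match is a description of the sequence and not of a bound site. Each stretch below is written 5′ to 3′ on the strand of its gene, with the match in capitals. Places are given relative to the named gene only. The stretch of Nfe2l2 lies within another annotated gene, E030042O20Rik (chr2:75704770-75710024).
Nfe2l2, chr2:75704794-75704913, minus strand, match starting 240 bases before the start site, outside the annotated gene: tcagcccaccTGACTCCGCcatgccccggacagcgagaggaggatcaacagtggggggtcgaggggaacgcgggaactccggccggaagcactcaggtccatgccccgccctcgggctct
Gclm, chr3:122245368-122245487, plus strand, match 134 bases before the start site, outside the annotated gene: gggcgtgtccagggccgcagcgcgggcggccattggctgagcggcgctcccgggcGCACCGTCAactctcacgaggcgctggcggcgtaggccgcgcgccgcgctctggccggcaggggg
Txnrd1, chr10:82859059-82859178, plus strand, match 92 bases before an internal start site and in an intron of longer transcripts: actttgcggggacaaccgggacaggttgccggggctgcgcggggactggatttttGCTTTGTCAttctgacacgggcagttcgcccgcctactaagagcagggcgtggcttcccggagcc
Srxn1, chr2:152105542-152105571, plus strand, match 28 bases after the start site in an untranslated exon: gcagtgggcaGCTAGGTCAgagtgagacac
G6pdx, chrX:74428918-74428947, minus strand, match 57 bases before the start site in an untranslated exon of another transcript: aggcgggtcaGCTCAGTCAaagcacacgcc
Pgd, chr4:149166060-149166089, minus strand, match 3 bases after an internal start site in coding sequence: atttcagagcTGACATTGCactgatcggac
The calls of the genes with these letters differed, as the values that follow show, and a part of the letters in these values was not tested. Srxn1 and Pgd were higher, Gclm was lower, and Nfe2l2, Txnrd1 and G6pdx did not pass the test. The windows of Nqo1 and Gpx1 held no match, nor did the window at the upstream start site of Pgd or the other windows of Txnrd1. Sequence outside the windows was not searched, and no windows were held for Gclc and Gsr. The amino acid response letters TGATGNAA, which ATF4 is known to bind with C/EBP partners, were in 0 of the 11 windows, against 3.97% of all windows. At so low a share, 0 is the likely count in 11 windows of any genes, and it is not read as a result about these genes.

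Of the 10 genes, 2 were higher in Pcx L-/- liver (Srxn1 and Pgd) and 3 were lower (Gpx1, Gclm and Gclc) by edgeR's quasi-likelihood test at a Benjamini-Hochberg adjusted p of 0.05. Over all 13168 genes tested, 14.1% were higher and 13.5% were lower, and with 10 genes a share of 2 or 3 is not read as a result about this set. The median log2 fold change was 0.01 over the 10 genes and -0.01 over all genes. The genotypes did not overlap in 4 of the 10 (Srxn1, Pgd, Gpx1 and Gclm), against 27.6% of all genes. The values depended on how libraries were scaled. When counts were scaled by total reads alone, the median over all genes moved to a log2 fold change of 0.28, each value below moved up by about as much, and of the 10 genes 2 were higher and 1 was lower, beside 29.7% and 6.61% of all genes.

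**Figure D1:**
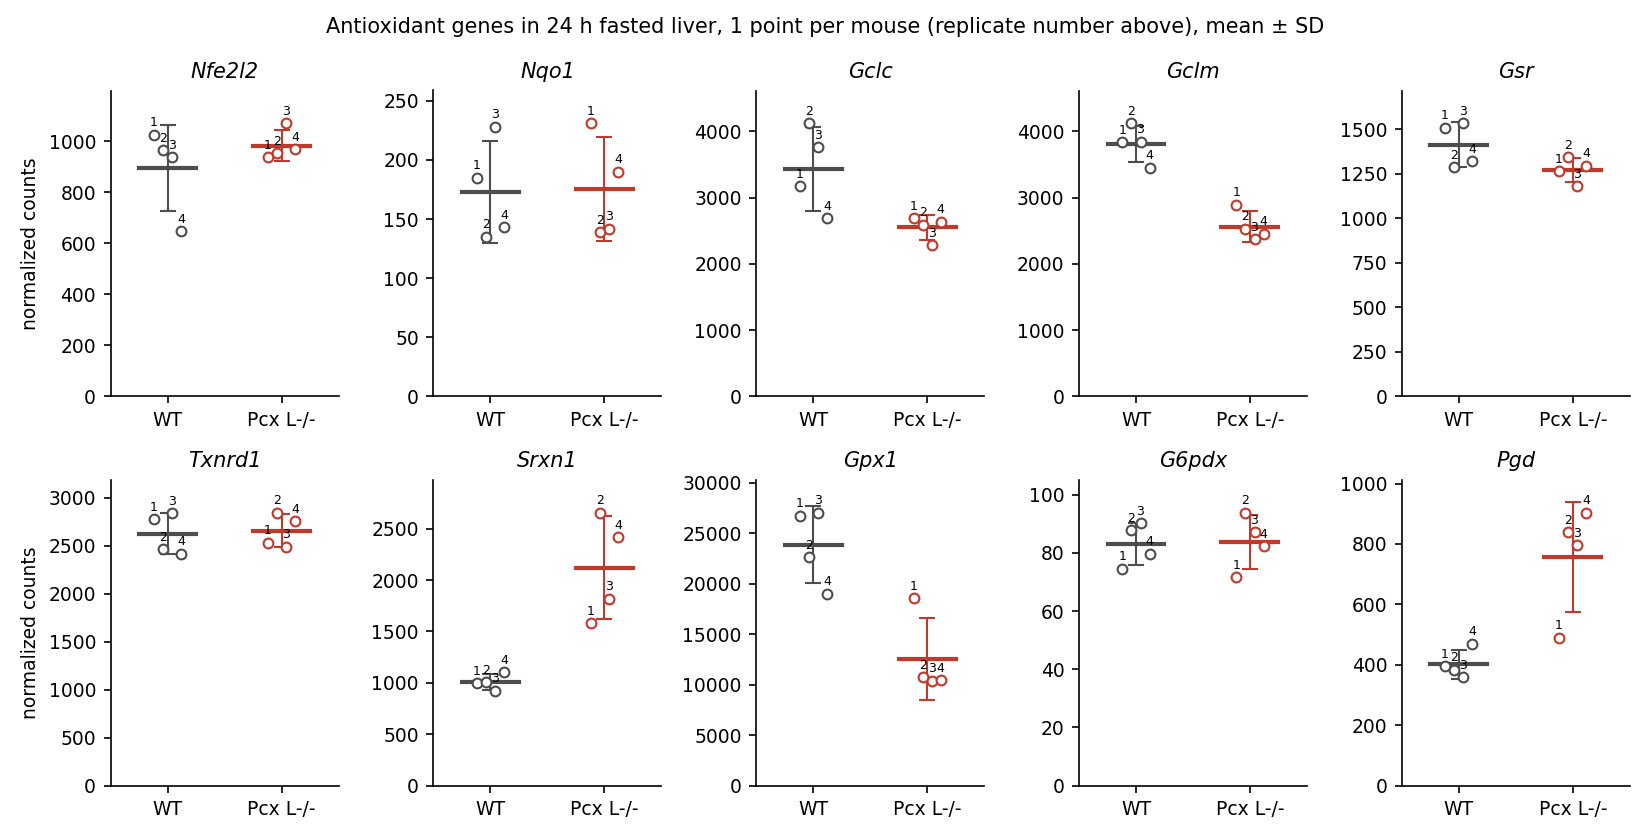
Normalized counts of the 10 genes in each liver (vertical axes, starting at 0), with controls labelled WT; points are mice with their replicate number, bars are the mean of 4 and whiskers the SD. Srxn1 and Pgd lie higher and Gpx1 and Gclm lower in every Pcx L-/- mouse than in any control, and Pcx L-/- replicate 1 is the nearest to the controls in all 4.

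Nfe2l2 encodes Nrf2 itself (ENSMUSG00000015839, GRCm38 chromosome 2, 75675513 to 75704641). Its normalized counts were 1025, 964, 938 and 648 in control replicates 1 to 4 and 938, 952, 1070.0 and 969 in Pcx L-/- replicates 1 to 4. The genotypes overlapped, and control replicate 4 was the lowest of the 8. Between genotypes the log2 fold change was 0.13 (SE 0.14, 95% interval -0.17 to 0.43, adjusted p = 0.511 by edgeR). Nrf2 is controlled largely through the stability of its protein, which these counts do not measure.

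Nqo1, a quinone reductase that is often read as a marker of Nrf2 activity (ENSMUSG00000003849, chromosome 8, 107388225 to 107403206), was expressed at a low level. Normalized counts were 185, 135, 228 and 143 in controls and 231, 139, 142 and 190 in Pcx L-/- liver. The same spread was seen in both genotypes. The log2 fold change was 0.01 (SE 0.21, 95% interval -0.45 to 0.48, adjusted p = 0.973 by edgeR). The interval leaves room for a change of either sign, and it is not a limit of detection. Its sign turned when single mice were left out (-0.15 without Pcx L-/- replicate 1, 0.17 without control replicate 3).

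Gclm encodes the modifier subunit of glutamate-cysteine ligase, the rate-limiting enzyme of glutathione synthesis (ENSMUSG00000028124, chromosome 3, 122245557 to 122270732). Its normalized counts were 3832, 4119.7, 3840.4 and 3449 in controls and 2894, 2533, 2369.5 and 2454 in Pcx L-/- liver. Every Pcx L-/- value was below every control value. The mean was 2563 ± 231 in Pcx L-/- liver and 3810.1 ± 276 in controls (SD, n = 4 each), or 67.3% of the control mean. Gclm was lower with a log2 fold change of -0.57 (SE 0.11, adjusted p = 0.00482 by edgeR), and -0.64 without Pcx L-/- replicate 1. The call was lost when libraries were scaled by total reads alone (-0.30, adjusted p = 0.0648).

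Gclc encodes the catalytic subunit of the same ligase (ENSMUSG00000032350, chromosome 9, 77754535 to 77794485). Normalized counts were 3169, 4122, 3759.8 and 2689.9 in controls and 2695, 2591, 2281 and 2637 in Pcx L-/- liver. The genotypes overlapped narrowly, since control replicate 4 lay just below Pcx L-/- replicate 1. Gclc was lower with a log2 fold change of -0.43 (SE 0.14, adjusted p = 0.044 by edgeR), close to the threshold. The call was kept in 5 of 19 alternatives, among them those without Pcx L-/- replicate 1 (-0.46, adjusted p = 0.0353) and without control replicate 4 (-0.53, adjusted p = 0.011), and was lost when any of the other 6 mice was left out (adjusted p up to 0.129). Scaled by total reads alone, it was -0.16 (adjusted p = 0.466).

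The ratio of the subunits was compared per transcript length, as FPKM (deposited reads divided by transcript length and library total) of Gclc over FPKM of Gclm in the same liver. It was 1.17, 1.42, 1.38 and 1.10 in controls and 1.32, 1.45, 1.36 and 1.52 in Pcx L-/- liver. On the log2 scale the ratio was 0.33 ± 0.18 in controls and 0.49 ± 0.09 in Pcx L-/- liver (SD, n = 4 each). The difference of 0.16 was within the spread between mice (exact permutation test, p = 0.2, two-sided).

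Gsr encodes glutathione reductase, which returns oxidized glutathione to its reduced form (ENSMUSG00000031584, chromosome 8, 33652523 to 33698163). Normalized counts were 1509, 1288, 1534 and 1322 in controls and 1264, 1343, 1181 and 1296 in Pcx L-/- liver, and the genotypes overlapped. The log2 fold change was -0.15 (SE 0.10, 95% interval -0.38 to 0.07, adjusted p = 0.288 by edgeR). Its sign turned to 0.13 when libraries were scaled by total reads alone, and no call was made under either scaling.

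Gpx1 encodes the main cytosolic glutathione peroxidase, a selenoprotein that is very abundant in hepatocytes (ENSMUSG00000063856, chromosome 9, 108338903 to 108340343). Its normalized counts were 26749, 22668, 27067 and 19035 in controls. In Pcx L-/- liver they were 18595, 10736, 10399 and 10471. Replicate 1 lay just under the lowest control, and the other 3 lay close together at a much lower level. The mean was 12550.4 ± 4033 in Pcx L-/- liver and 23880 ± 3801 in controls (SD, n = 4 each), or 52.6% of the control mean. On the log2 scale this was -0.93 (SE 0.21, adjusted p = 0.00974 by edgeR), and -1.18 (adjusted p = 0.000132) without Pcx L-/- replicate 1. Gpx1 was lower in all 19 alternatives, and the log2 fold change was -0.68 when scaled by total reads alone. Pcx L-/- replicate 1 had the highest Gpx1 count of its group and also the highest summed count of red blood cell genes (69307). That sum was 6682, 6244 and 15778 in Pcx L-/- replicates 2 to 4, and 4747, 16715, 8506 and 10826 in controls. The part of red blood cell genes in the Gpx1 counts was not tested.

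Txnrd1 encodes the cytosolic thioredoxin reductase (ENSMUSG00000020250, chromosome 10, 82833951 to 82897712). Normalized counts were 2778, 2465, 2843 and 2417 in controls and 2535, 2847, 2490.0 and 2758 in Pcx L-/- liver. The ranges were nearly the same. Txnrd1 had a log2 fold change of 0.02 (SE 0.11, 95% interval -0.22 to 0.25, adjusted p = 0.927 by edgeR), with a value of 0.30 under total-read scaling, close to the shift of all genes.

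Srxn1 encodes sulfiredoxin (ENSMUSG00000032802, chromosome 2, 152105516 to 152111376), and it was the member with the largest fold change. Normalized counts were 999, 1006, 923 and 1103 in controls and 1582, 2656, 1819.7 and 2419 in Pcx L-/- liver. Controls lay close together, while the Pcx L-/- mice spread widely and all lay above them. The mean was 2119 ± 502 in Pcx L-/- liver and 1008 ± 73.7 in controls (SD, n = 4 each), or 2.1-fold. Srxn1 was higher with a log2 fold change of 1.07 (SE 0.16, 95% interval 0.72 to 1.43, adjusted p = 0.00133 by edgeR). It was higher by at least 2-fold, as were 3.65% of all genes. The call was kept in all 19 alternatives, with log2 fold changes of 0.95 to 1.19 when single mice were left out. Txnrd1, of the same thioredoxin arm, did not pass the test, and the difference between the responses of these genes was not tested.

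G6pdx encodes the dehydrogenase that opens the oxidative pentose phosphate pathway and forms its earlier NADPH (ENSMUSG00000031400, chromosome X, 74409483 to 74429194). It had only 74.6, 87.8, 90.3 and 79.8 normalized counts in controls and 71.7, 93.9, 87.1 and 82.4 in Pcx L-/- liver. The log2 fold change was 0.01 (SE 0.16, 95% interval -0.34 to 0.36, adjusted p = 0.963 by edgeR). The gene overlaps Ikbkg on the opposite strand, which had 14546 reads over the 8 libraries, and the sources used here do not say whether the counting used strand, so reads of the overlap cannot be assigned with certainty. The intronless copy G6pd2 had 0 reads in every library, and a count of 0 allows up to 3 reads.

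Pgd encodes the dehydrogenase that forms the later NADPH of the same pathway (ENSMUSG00000028961, chromosome 4, 149149991 to 149166771). Normalized counts were 396, 384, 359 and 470 in controls and 490, 838, 796 and 904 in Pcx L-/- liver. Every Pcx L-/- value was above every control value, although replicate 1 was only slightly above control replicate 4. Pgd was higher with a log2 fold change of 0.92 (SE 0.18, 95% interval 0.53 to 1.30, adjusted p = 0.00437 by edgeR), or 1.88-fold by the means, and 1.08 without Pcx L-/- replicate 1. The call was kept in all 19 alternatives.

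**Figure D2:**
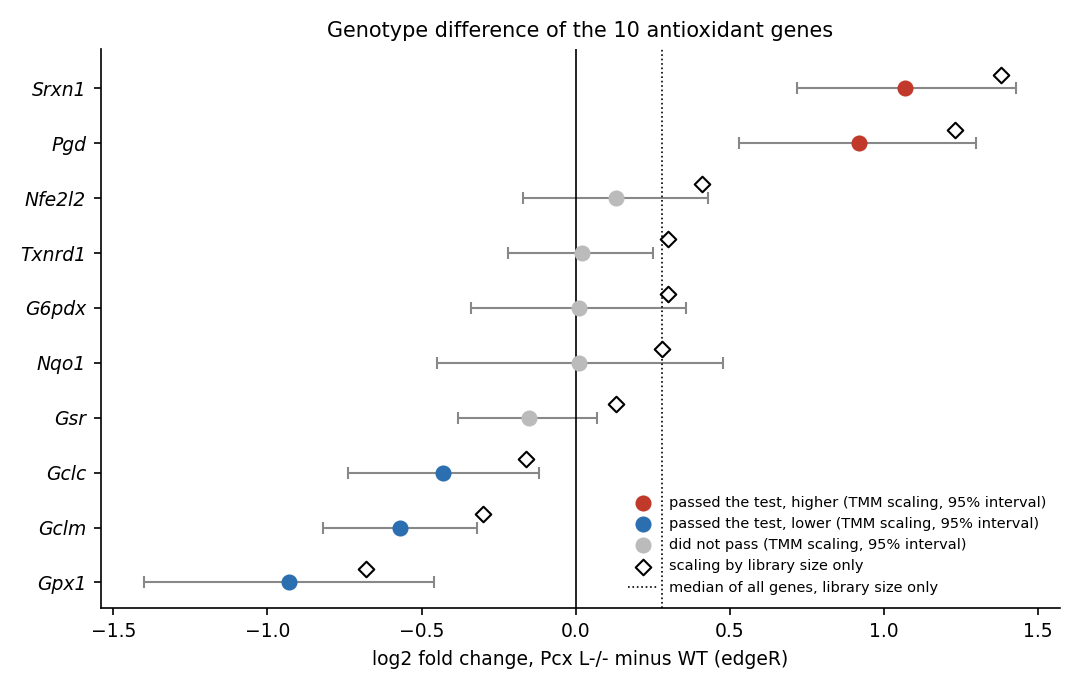
Log2 fold change of each gene (horizontal axis, Pcx L-/- minus WT); filled points are edgeR values with TMM scaling and their 95% intervals, open diamonds the values when libraries were scaled by total reads alone, and the dotted line is the median of all genes under that scaling (0.28). Srxn1 (1.07) and Pgd (0.92) lie on the right and Gpx1 (-0.93), Gclm (-0.57) and Gclc (-0.43) on the left under TMM scaling, and the diamonds of Gclc and Gclm lie nearer to 0.

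The ratio of G6pdx to Pgd was lower in Pcx L-/- liver. As a ratio of FPKM it was 0.259, 0.314, 0.346 and 0.233 in controls and 0.201, 0.154, 0.150 and 0.125 in Pcx L-/- liver. No value was shared between the genotypes. On the log2 scale the ratio was -1.81 ± 0.26 in controls and -2.69 ± 0.28 in Pcx L-/- liver (SD, n = 4 each), a difference of -0.87. The exact permutation test gave p = 0.0286 (two-sided), the smallest value that 4 mice against 4 allow. Adjusted over the 2 ratios tested, p was 0.0571, which does not pass 0.05. The ratio contains the Pgd values already described and is not independent of them.

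**Figure D3:**
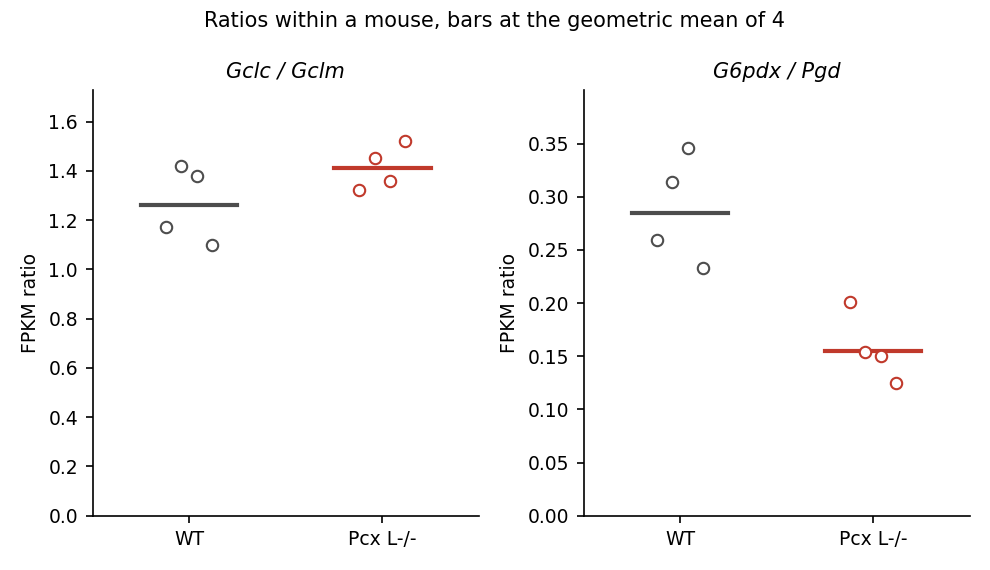
FPKM ratios within each liver (vertical axes, starting at 0) for Gclc over Gclm and G6pdx over Pgd, with 1 point per mouse, controls labelled WT and bars at the geometric mean of 4. The Gclc to Gclm ratios overlap between genotypes (1.10 to 1.42 and 1.32 to 1.52), and the G6pdx to Pgd ratios do not (0.233 to 0.346 and 0.125 to 0.201).

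Levels were ordered per transcript length by FPKM. In control liver Gpx1 led at 1231 ± 242 FPKM (SD, n = 4), far above Gclc at 53.9 ± 12.2, Gclm at 42.1 ± 5.16 and Txnrd1 at 41.1 ± 4.85. The ranges of Gclc and Gclm overlapped, as did those of Gclm and Txnrd1. Gsr followed at 28.3 ± 3.36, then Nfe2l2 at 19.4 ± 4.48 and Srxn1 at 19.1 ± 0.89, which overlapped. Nqo1 (5.96 ± 1.60) and Pgd (5.87 ± 0.407) overlapped as well, and G6pdx was lowest at 1.68 ± 0.193. In Pcx L-/- liver Gpx1 still led at 770 ± 167 FPKM, and Srxn1 stood beside Txnrd1 and Gclc. Their FPKM were 49.6 ± 14.5, 50.7 ± 6.41 and 48.4 ± 3.82, and the ranges of Txnrd1 and Srxn1, and of Srxn1 and Gclc, overlapped. Pgd stood at 13.7 ± 4.10 and its range overlapped that of Nqo1 at 7.26 ± 1.25, because Pgd was 7.67 in replicate 1. FPKM are scaled by total reads, so fold changes between genotypes read from them carry the shift of all genes given above.

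**Figure D4:**
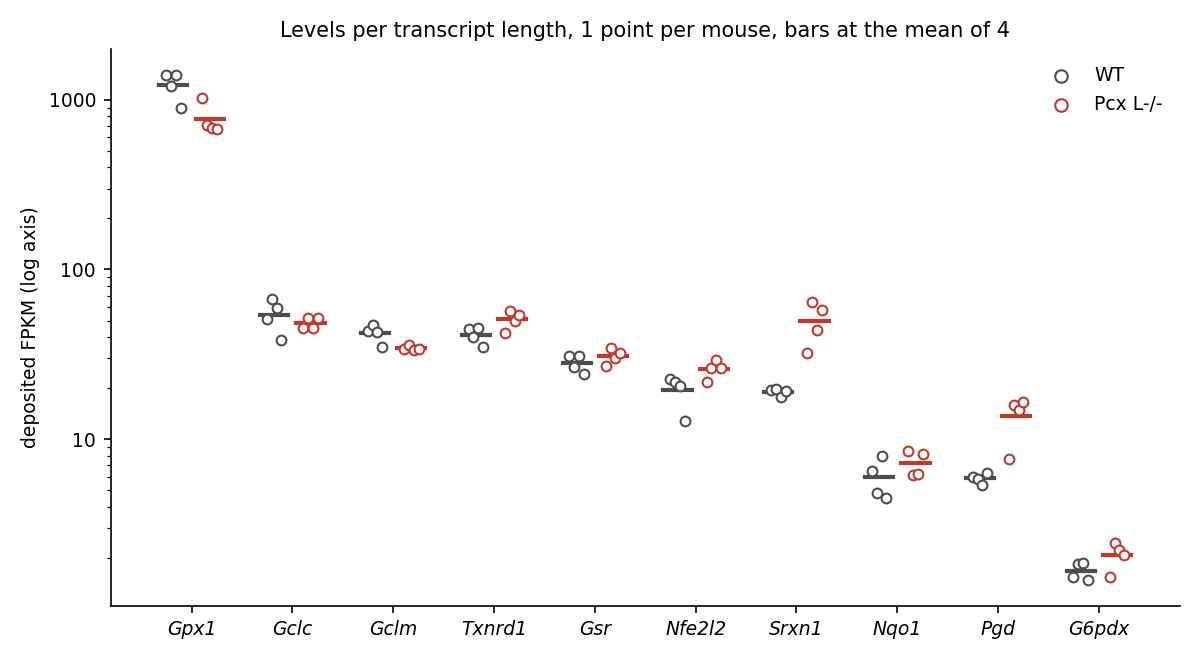
FPKM of the 10 genes (vertical log axis) in each liver, ordered by the control mean, with controls labelled WT; points are mice and bars the mean of 4. Gpx1 stands far above the rest (1231 in controls, 770 in Pcx L-/- liver), G6pdx is lowest in both genotypes, and Srxn1 goes from 19.1 in controls to 49.6 in Pcx L-/- liver.

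Among the 4 Pcx L-/- mice, replicate 1 had the lowest Srxn1 and Pgd and the highest Gpx1, Gclm and Gclc of its group, and lay nearest to the control mean in all 5. With the mice numbered in the 800s alone (2 control and 3 Pcx L-/-, a choice made after seeing the data), the log2 fold changes were 1.18 for Srxn1, 1.04 for Pgd, -1.13 for Gpx1 and -0.57 for Gclm, with adjusted p of 0.00685 or less by edgeR. Gclc was -0.37 there and did not pass (adjusted p = 0.111). Within the 500s there was 1 Pcx L-/- mouse, which allows no test.

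The other genes of these pathways were followed as whole lists, 113 genes in 8 lists, of which 108 passed the filter on low counts. Of these, 20 were higher and 23 lower, with a median log2 fold change of -0.14, beside the background of 14.1% and 13.5% of all genes. Scaled by total reads alone, 33 were higher and 13 lower, with a median of 0.15. Under that scaling 29.7% of all genes were higher and 6.61% lower, with a median of 0.28. The lower calls lost under that scaling were those of Oplah, Sesn1, Sesn3, Taldo1, Mthfd1, Ephx1, Cbr1, Blvrb, Selenoi and Sephs1. Without Pcx L-/- replicate 1, 22 were higher and 37 lower, beside 16.7% and 17.8% of the 13330 genes then tested.

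**Figure D5:**
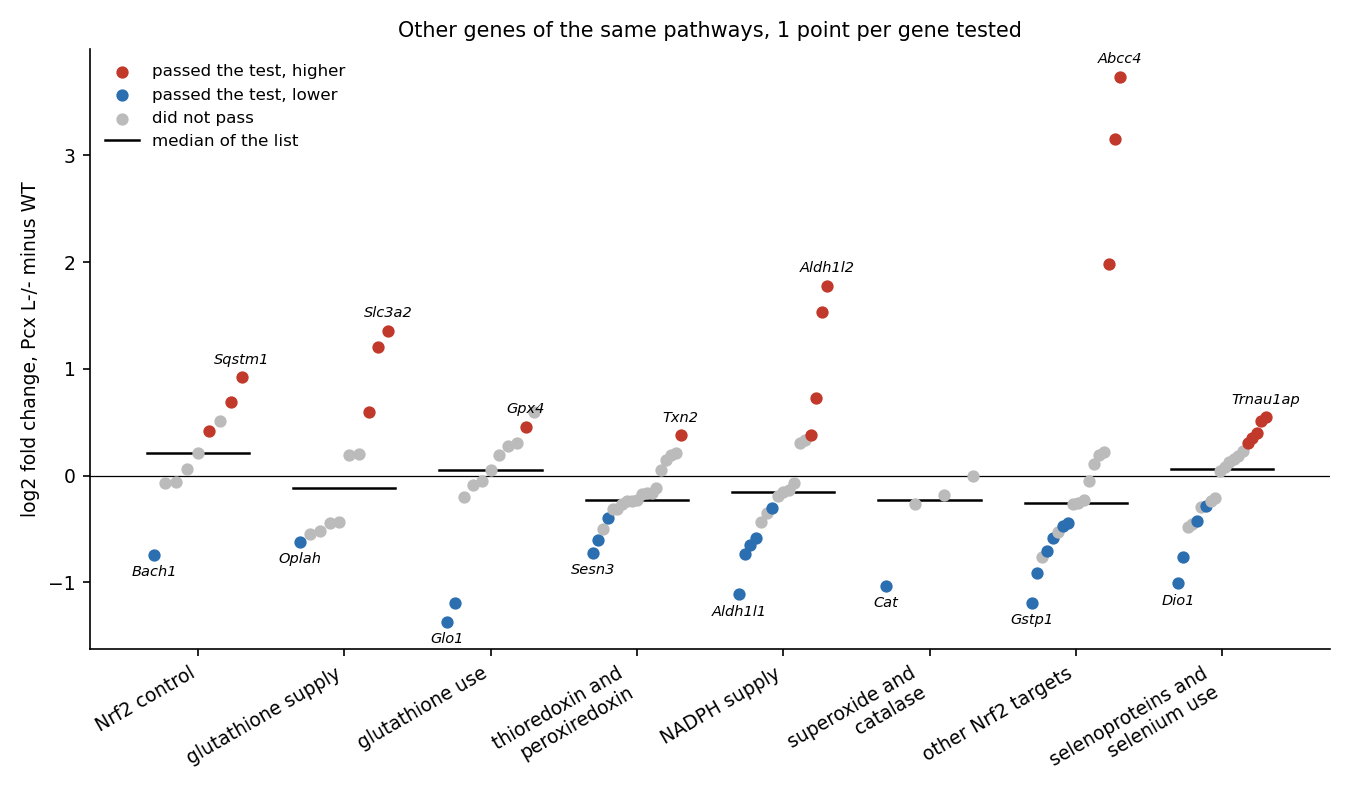
Log2 fold change (vertical axis, Pcx L-/- minus WT) of each tested gene in the 8 pathway lists along the horizontal axis, colored by the edgeR call, with a bar at the median of each list and the most extreme called gene of each direction named. Most genes lie between -1 and 1, list medians lie between -0.26 and 0.21 (0.01 to 0.49 when scaled by total reads alone), and Abcc4 (3.74) lies highest.

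Of 9 genes that control Nrf2, 3 were higher, 1 was lower and 5 did not pass, beside 14.1% higher and 13.5% lower of all genes. Sqstm1, the autophagy adaptor p62 that can sequester Keap1, had normalized counts of 7293, 6332, 7981 and 8647 in controls and 10167, 17682, 12609.5 and 16785 in Pcx L-/- liver, with no overlap (log2 fold change 0.92, SE 0.19, adjusted p = 0.00567 by edgeR). Mafk, a small Maf partner of Nrf2, was higher (0.69, adjusted p = 0.0178), although the genotypes overlapped, and Nfe2l1, the related factor Nrf1, was higher as well (0.42). Leaving out any of control replicates 1 and 3 and Pcx L-/- replicates 2 and 4 ended the Mafk call (adjusted p up to 0.0573), and that of Nfe2l1 was kept only without control replicate 4 or Pcx L-/- replicate 1. Bach1, a repressor that competes with Nrf2 for its sites, was lower, with 1305, 1201, 1306 and 1516 in controls and 1103, 685, 752 and 639 in Pcx L-/- liver (-0.74, SE 0.17, adjusted p = 0.00814). Keap1 had 813 to 1068 normalized counts in controls and 804 to 909 in Pcx L-/- liver. Its log2 fold change was -0.07 (adjusted p = 0.674) and turned to 0.22 under total-read scaling.

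Of 10 tested genes that supply or break down glutathione, 3 were higher and 1 was lower, beside 14.1% and 13.5% of all genes. Slc3a2, the heavy chain shared by several amino acid carriers, had 667, 678, 753 and 709 normalized counts in controls and 1503, 1811, 1904 and 1983 in Pcx L-/- liver (log2 fold change 1.36, SE 0.11, adjusted p = 0.000122 by edgeR). Slc7a11, the light chain that makes it a cystine carrier, was close to absent, with at most 6.37 normalized counts in any library, and was not tested. Ggct, which cleaves gamma-glutamyl amino acids in the breakdown of glutathione, was higher (108 ± 16.5 in controls and 250 ± 59.3 in Pcx L-/- liver, SD, n = 4 each, log2 fold change 1.21). Slc25a39, which carries glutathione into mitochondria, was higher by 0.60 on the log2 scale. Oplah, which opens the ring of the product of Ggct, was lower (-0.62, adjusted p = 0.0426), and this call was kept in 9 of 19 alternatives and, of the 8 fits that left out a mouse, in those without control replicate 2 or Pcx L-/- replicate 1.

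Of 11 tested genes that use glutathione, 1 was higher and 2 were lower, beside 14.1% and 13.5% of all genes. Gpx4, the peroxidase of membrane lipids, had 4080.2, 4767, 4072 and 3613 normalized counts in controls and 5583, 5503, 5442 and 6262 in Pcx L-/- liver (0.46, SE 0.12, adjusted p = 0.0173 by edgeR). Leaving out control replicate 1, control replicate 3 or Pcx L-/- replicate 4 ended the call (adjusted p up to 0.066). Gpx4 and Gpx1 are both selenoproteins, and they passed the test in opposite directions. Glo1, which clears methylglyoxal with glutathione, was lower, with 4307, 4673, 4758 and 3993 in controls and 2408, 1430.4, 1578 and 1432 in Pcx L-/- liver (-1.37, SE 0.17, adjusted p = 0.000802). Glrx, the cytosolic glutaredoxin, was lower as well (929 ± 120 in controls and 409 ± 157 in Pcx L-/- liver, SD, n = 4 each, log2 fold change -1.19).

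Of 19 thioredoxin and peroxiredoxin genes, 1 was higher and 3 were lower, beside 14.1% and 13.5% of all genes, and 15 did not pass. Txn2, the mitochondrial thioredoxin, was higher (0.38, adjusted p = 0.0196 by edgeR). Prdx4, the peroxiredoxin of the endoplasmic reticulum, was lower (-0.60, adjusted p = 0.00905), as were the sestrins Sesn3 (-0.72, adjusted p = 0.0426) and Sesn1 (-0.40). The Sesn3 call was kept in 10 of 19 alternatives, and without control replicate 4, which had the highest count, its log2 fold change was -0.45. With a mouse left out, the call was kept for Sesn3 in 3 of 8 fits, for Sesn1 in 2, for Txn2 in 6 (lost without control replicate 1 or Pcx L-/- replicate 4) and for Prdx4 in all 8.

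Of 17 tested genes that supply NADPH outside the members, 4 were higher and 5 were lower, beside 14.1% and 13.5% of all genes. Me1, the cytosolic malic enzyme, was higher (0.73), and Idh1, the cytosolic isocitrate dehydrogenase, was lower (-0.65). Of the folate enzymes that can form NADPH, the mitochondrial Mthfd2 and Aldh1l2 were higher from very low levels. Mthfd2 had 10.2 to 22.8 normalized counts in controls and 34.9 to 67.2 in Pcx L-/- liver (1.53, adjusted p = 0.00542 by edgeR), and Aldh1l2 had 2.15 to 11.8 and 14.2 to 31.1 (1.78, adjusted p = 0.0146). The mitochondrial Mthfd2l did not pass, with 5.09 to 37.3 in controls and 22.6 to 29.8 in Pcx L-/- liver (0.33, adjusted p = 0.582). The cytosolic Aldh1l1 was lower from a very high level, with 22143, 13906, 17369.6 and 25394 in controls and 15859, 6492, 7596 and 6627 in Pcx L-/- liver (-1.11, adjusted p = 0.0191), and the genotypes overlapped through Pcx L-/- replicate 1. The Aldh1l1 call was lost without Pcx L-/- replicate 2, 3 or 4 (adjusted p up to 0.0669), and the log2 fold change of Aldh1l2 was 2.39 without control replicate 1. Mthfd1 was lower (-0.58), as was Nadk2, the mitochondrial NAD kinase (-0.73). In the pentose phosphate pathway Pgls was higher (0.38) and Taldo1 was lower (-0.30). The calls of Mthfd1 and Taldo1 were each kept in 2 of the 8 fits that left out a mouse. Nnt, the mitochondrial transhydrogenase that is defective in C57BL/6J mice, had 3238 to 3810.0 normalized counts in controls and 2738 to 3395 in Pcx L-/- liver. Both genotypes thus had reads of the gene, and counts per gene do not show whether the transcript was complete. The log2 fold change of Nnt was -0.19 (adjusted p = 0.24) and turned to 0.09 under total-read scaling.

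Of 4 superoxide dismutase and catalase genes, 1 was lower and 3 did not pass, where 13.5% of all genes were lower. Cat, the peroxisomal catalase, had 48750.4, 43705, 45261 and 44780.1 normalized counts in controls and 30918, 18380.0, 21581 and 18683 in Pcx L-/- liver. The genotypes did not overlap, and the mean was 22391 ± 5865 in Pcx L-/- liver and 45624 ± 2183 in controls (SD, n = 4 each). Cat was lower with a log2 fold change of -1.03 (SE 0.18, adjusted p = 0.00312 by edgeR), and the call was kept in all 19 alternatives.

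Of 18 other tested genes known as Nrf2 targets, 3 were higher and 6 were lower, beside 14.1% and 13.5% of all genes. Scaled by total reads alone, 3 were higher and 3 lower, beside 29.7% and 6.61% of all genes. The higher genes had the largest log2 fold changes of the 8 lists. Abcc4, an exporter of organic anions, had 69.2, 55.3, 76.3 and 100 normalized counts in controls and 240, 1733, 987 and 1006 in Pcx L-/- liver (log2 fold change 3.74, SE 0.49, adjusted p = 0.000846 by edgeR). Cbr3, a carbonyl reductase, had 3.25 to 12.7 and 21.7, 211, 48.2 and 59.5 (3.15, SE 0.70, adjusted p = 0.00813), and its log2 fold change was 2.16 without Pcx L-/- replicate 2. Gsta1 was higher from few reads (1.98), and its reads can be shared with close paralogs. The lower genes were Gstp1 (-1.19, adjusted p = 0.00585), Abcc3 (-0.91, adjusted p = 0.0155), Aox1, Cbr1, Ephx1 and Blvrb, and Gstp1 has a near-identical copy, Gstp2, with which it can share reads. With a mouse left out, the calls of Ephx1 and Blvrb were kept in 2 of 8 fits, that of Cbr1 in 5 and that of Abcc3 in 7 (lost without Pcx L-/- replicate 4). Hmox1, heme oxygenase, ranged from 154 to 576 in controls and from 312 to 498 in Pcx L-/- liver (0.22, SE 0.32, adjusted p = 0.653). Its log2 fold change was 0.63 without control replicate 2, close to 0 without control replicate 4, and 1.01 among the mice numbered in the 800s, the only alternative of 19 that called it (adjusted p = 0.00821).

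Of 20 selenoprotein and selenium-handling genes, 5 were higher and 4 were lower, beside 14.1% and 13.5% of all genes. Dio1, which converts thyroxine to its active form, was lower, with 1754, 2189.9, 1879 and 2369 normalized counts in controls and 1512, 872, 844 and 852 in Pcx L-/- liver (-1.01, SE 0.19, adjusted p = 0.00439 by edgeR). Selenoo was lower as well (-0.76). Trnau1ap and Pstk, which act on the transfer RNA of selenocysteine, were higher (0.55 and 0.51), and the Pstk call was lost without Pcx L-/- replicate 2 or 4. Gpx1 and Dio1 were lower and Gpx4 was higher within this class of proteins, and 11 of the 20 genes did not pass the test.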

How the data were processed

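Liver RNA of 8 mice was measured, with 1 library per mouse. The authors isolated total RNA, had it sequenced by a company and aligned it to mm10. The submitters' processing notes name STAR 2.5, HTSeq 0.6.1 and DESeq2, and do not say whether strand was used. The authors deposited raw counts per Ensembl gene and FPKM. All 142384 FPKM above 0 equal count over total and 1 length per gene (relative tolerance 0.0001). GENCODE M21 named 34490 of 35275 IDs.

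Groups came from the sample labels. Counts were tested with edgeR 4.0.16 (R 4.3.3, TMM, the filterByExpr filter at 10 reads and 15 in total, genotype only, quasi-likelihood test, Benjamini-Hochberg adjustment over 13168 genes). Standard errors are approximate, taken from the F statistic. The biological coefficient of variation was 0.181. FPKM ratios were compared by exact permutation of the mice. Alternatives were DESeq2 1.42.0 (Wald), limma 3.58.1 on log2(FPKM + 1) and log2(FPKM + 0.1), other scalings and filters, a replicate block, the mouse number series as a covariate and each mouse left out. The steps were tested on simulated data.

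The genes, lists and tests were chosen with earlier results of these data known. Named beside the 10 genes are Keap1, Slc7a11, Hmox1, Nnt, G6pd2 and Pcx, and in each list the 2 called genes that were highest and the 2 that were lowest. Nfe2l1, Slc25a39, Sesn1, Me1, Idh1, Mthfd1, Mthfd2l, Pgls, Taldo1, Gsta1, Aox1, Cbr1, Ephx1, Blvrb, Selenoi and Sephs1 were named after their values were seen. Motif letters were searched in RefSeq windows of GRCm38.p6. Mouse metabolites, proteins and other diets are not analysed here.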

Additional observations from a re-analysis of the deposited data

Results flagged for a closer look

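Within a group of 4 mice, 9 of 84 combinations of a group with a gene or ratio had a mouse that stood outside Dixon's 95% limit for the gap to the nearest other mouse, where chance gives about 1 in 20. Of these, 7 came from Pcx L-/- replicate 1, which lay on the side of the controls each time. Its normalized count was 18595 for Gpx1 (10399 to 10736 in the other 3), 4384 for Oplah (2857 to 3086), 2408 for Glo1 (1430.4 to 1578), 644 for Glrx (324 to 337), 15859 for Aldh1l1 (6492 to 7596), 1512 for Dio1 (844 to 872) and 828 for Selenoo (464 to 507). The values are not independent, since they come from the same library. Control replicate 4 had 202 normalized counts of Sesn3, against 105 to 111 in the other controls, and control replicate 1 had 6.37 of Slc7a11, against 0 to 1.08.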

How the results depend on the processing

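Of the values of the 10 genes under the alternatives, 159 kept direction and call, 17 lost a call and 14 turned sign, all 14 in genes that had not passed the test. Of the lost calls, 14 were of Gclc and 3 of Gclm, whose adjusted p was 0.0627 to 0.0648 under total-read scaling and on FPKM. Scaled by total reads alone, 1 member was lower in place of 3, other pathway genes were 33 higher and 13 lower, and all genes 3915 higher and 870 lower. On log2(FPKM + 1) these were 1 member, 32 and 13, and 3822 and 823. On log2(FPKM + 0.1) they were 1 member, 32 and 13, and 3779 and 822. With a mouse left out, members called were 2 higher and 2 to 3 lower, other pathway genes 12 to 22 higher and 12 to 37 lower, and all genes 1156 to 2232 higher and 953 to 2370 lower. Leaving out Pcx L-/- replicate 4 gave the lowest counts over all genes and leaving out replicate 1 the highest. The log2 difference of the G6pdx to Pgd ratio was -0.77 to -1.0 with a mouse left out, and p was 0.0571 without control replicate 2 or 3.

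Equal replicate numbers did not pair the mice, since the deviations of same-numbered livers correlated at 0.10, -0.13, -0.10 and -0.07. With the replicate block, the G6pdx to Pgd difference of -0.87 had an exact sign-flip p = 0.125, the smallest that 4 pairs allow, Gclc was not called (adjusted p = 0.0883), and all genes called were 1481 higher and 1494 lower.

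Sign turned for Nqo1 (-0.15 to 0.17 with a mouse left out, with -0.09 and -0.06 without control replicates 2 and 4, -0.15 and -0.02 without Pcx L-/- replicates 1 and 4, -0.26 among the mice numbered in the 800s), for Txnrd1 (up to 0.06, with -0.01, -0.02 and -0.02 without control replicates 2 and 4 and Pcx L-/- replicate 2), and for G6pdx (up to 0.08 with a mouse left out, -0.04 with the mouse number series as a covariate, -0.04 without control replicate 1, -0.05 without Pcx L-/- replicate 2). It turned for Gsr (0.13), Keap1 (0.20 to 0.22) and Nnt (0.09) under total-read scaling and on FPKM, and for Keap1 (-0.12 to 0.02 with a mouse left out) without control replicate 4. The cause was not tested. With 4 mice a group, the standard errors of the 10 genes were 0.10 to 0.21 on the log2 scale. The limit of detection lay well above the standard error, since Gclc at -0.43 with an SE of 0.14 only just passed (adjusted p = 0.044 by edgeR). Differences smaller than this relative to their standard error could be missed.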

Other observations

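Among zonal markers, Cyp2f2 was lower (-1.16) and Axin2 was higher (0.67) in all 8 fits that left out a mouse. Cyp2e1 (-0.98), Pck1 (-0.72), Gls2 (-0.68) and Tbx3 (0.49) were called with all mice, and kept the call in 5, 4, 1 and 6 of those 8 fits. The pericentral list had 2 of 7 tested genes higher and 1 lower under either scaling. The periportal list had 0 of 6 higher and 3 lower, and when scaled by total reads alone 1 higher (Hsd17b13, 0.66, adjusted p = 0.00251 by edgeR) and 2 lower, with Gls2 no longer called (adjusted p = 0.0861). Other marker lists gave 1 lower cholangiocyte gene of 5 tested (Sox9, -0.79, kept in 5 of those 8 fits and lost under total-read scaling), 0 of 2 tested neutrophil genes (Ly6g was at 0 in every library) and 0 of 5 red blood cell genes. Over all genes 14.1% were higher and 13.5% lower, and 29.7% and 6.61% under total-read scaling. With so few genes a list, these counts are not read as a result about zones or cell types.

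The neighborhoods of the 10 genes, within 250000 bases, held 2 to 17 tested genes each, of which 0 to 5 were higher and 0 to 3 lower, beside 14.1% and 13.5% of all genes. Around Srxn1, 1 of 6 was higher, Trib3, named after its value was seen, with a log2 fold change of 4.17 (adjusted p = 4.01e-06 by edgeR).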
